A study of Mus musculus with 36 samples.

Results

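Blood RNA of 6 inbred mouse strains was compared between A/J, C3H/HeJ and DBA/2J, 3 strains whose major histocompatibility complex (MHC) haplotypes carry a working gene for the class II E alpha chain (here the E-functional strains), and 129S1/ImJ, C57Bl/6J and FVB/NJ, 3 strains whose haplotypes lack one (the E-null strains). The comparison used the arrays of globin-reduced (GLOBINclear) RNA, 18 of the 36 arrays of the study: 9 of the E-functional strains and 9 of the E-null strains, from 3 mice of each strain. The other 18 arrays, of whole RNA from the same mice, served as a check of direction and are not independent animals. All animals were males, 8 weeks old, bled from the heart under isoflurane. The GLOBINclear kit takes alpha and beta globin mRNA out of total RNA, and the whole RNA arrays of the same mice carry that mRNA. The sides are named from the haplotypes, a for A/J, k for C3H/HeJ and d for DBA/2J, against b for 129S1/ImJ and C57Bl/6J and q for FVB/NJ. Each strain is 1 inbred line, so the 3 mice of a strain repeat 1 genotype, and a side holds 3 genotypes that also differ from each other across the genome.

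MHC class II molecules present peptides to CD4+ T cells and are made mainly by B cells, monocytes and dendritic cells. In the mouse there are 2 of them, A and E, each a pair of an alpha and a beta chain, and without an E alpha chain no E molecule reaches the surface. MHC class I molecules (K and D) are carried by nearly all nucleated cells and present peptides to CD8+ T cells. The genes of both classes are among the most polymorphic of the genome, and they lie together on chromosome 17. A/J, C3H/HeJ and DBA/2J also share ancestry outside the MHC, so a gene that separates the sides need have no tie to the E molecule.

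The values are log2 expression summaries, so a difference of 1 is 2-fold, and values near 2 to 3 lie at the bottom of the scale, where a fold is understated. A difference is the mean of the 3 E-functional strain means minus the mean of the 3 E-null strain means, given with its standard error, and was called at an adjusted p under 0.05 (limma, Benjamini-Hochberg over all tested probe sets). Strain means were called separated where all 3 strains of a side lay beyond all 3 of the other. The test takes the 6 strains as given and measures the difference against the spread between mice of a strain. It does not ask whether other strains of either haplotype class would differ. On the GLOBINclear arrays 3802 to 4638 probe sets reached log2 5 in the E-functional strains, against 4080 to 5278 in the E-null strains. Globin probe sets averaged 8.72 to 9.21 on the E-functional arrays and 8.37 to 9.17 on the E-null arrays. A pair of E-null arrays stood apart from their strain mates. C57Bl/6J replicate 1 had the lowest best correlation with a mate (r = 0.957) and the most probe sets above log2 5. 129S1/ImJ replicate 3 (r = 0.963) had a mean level of the neutrophil markers of 8.52, where the other 17 arrays had 4.57 to 5.79.

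Of 22518 probe sets, 952 were called (4.23%) and 401 were called with separated strain means (1.78%). On whole RNA arrays 351 were called (1.56%). Of 11353 genes, each represented by its brightest tested probe set, 504 were called (4.44%). Of these, 191 were higher in the E-functional strains (1.68% of the genes tested) and 313 were lower (2.76%). After quantile normalization of the arrays the split was 270 higher and 224 lower, so the balance of directions depended on the scaling. The strain means were separated for 196 called genes (1.73%), 70 of them higher (0.617%) and 126 lower (1.11%), and 66 of those differed at least 2-fold (0.581%). Without regard to p, 979 genes had separated strain means (8.62%). If the 6 strains were interchangeable, a split of 3 against 3 would separate a gene with a probability of 0.1. The share found was not above that, so separated means alone do not mark a difference between the sides. In the other 308 called genes at least 1 strain of a side overlapped the other side, and the strain farthest from the median of the 6 was C57Bl/6J in 95 of them, A/J in 53, 129S1/ImJ in 49, FVB/NJ in 47, DBA/2J in 33 and C3H/HeJ in 31. With the 6 strain means as the samples, 1 of 22518 probe sets was called, in Ttc9, and 998 had an unadjusted p under 0.05. That is less than a share of 0.05 of the probe sets, the share expected without any difference. In that test Hs6st1, Tac2, Ankrd33b and Tfrc were not called (adjusted p = 0.953 for each). With strain as a random block, 59 probe sets were called, all with separated means, and the adjusted p was 0.00275 for Hs6st1, 0.00334 for Tac2 and for Ankrd33b and 0.0292 for Tfrc. The random block fit used 1 correlation within strains, 0.0884, for all probe sets. For a gene whose own correlation is higher, it understates the spread between strains. In the random block fit H2-Ea (adjusted p = 0.20), H2-K1 (0.0881), H2-D1 (0.058) and Ryk (0.0881) were not called. Of the 80 named genes called in the main fit, 65 lost their call there.

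The class II E alpha gene H2-Ea was higher in the E-functional strains, mostly through DBA/2J. Its brightest probe set had strain means of 3.76 in A/J, 4.16 in C3H/HeJ and 6.41 in DBA/2J, against 3.23 in 129S1/ImJ, 3.27 in C57Bl/6J and 3.51 in FVB/NJ. Single arrays ran from 3.51 to 6.64 (median 4.08) on the 9 E-functional arrays, against 2.87 to 3.65 (median 3.38) on the 9 E-null arrays, and 1 array of each side lay within the range of the other. The difference was 1.44 ± 0.15 (2.71-fold higher, adjusted p = 2.94e-05). Without DBA/2J the difference was 0.62 and was no longer called. A second H2-Ea set (1422892_s_at) had 3.87 ± 0.60 in A/J, 4.75 ± 0.32 in C3H/HeJ and 9.20 ± 0.23 in DBA/2J, against 2.71 ± 0.06 in 129S1/ImJ, 2.75 ± 0.10 in C57Bl/6J and 3.48 ± 0.25 in FVB/NJ (SD, n = 3 mice each). On that set the A/J arrays (3.98, 4.41 and 3.23) overlapped the FVB/NJ arrays (3.76, 3.27 and 3.41), while the C3H/HeJ and DBA/2J arrays lay above every E-null array. The difference on it was 2.96 (adjusted p = 5.43e-09). The last set (1426202_at) was flat, between 3.05 and 3.15 in all 6 strains. The naming of the sides is thus plain in DBA/2J and C3H/HeJ and weak in A/J, as far as these probes show the transcript.

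The B cell markers, whose cells carry class II, had a mean level of 4.75 ± 0.62 in A/J, 5.41 ± 0.69 in C3H/HeJ and 6.14 ± 0.25 in DBA/2J, against 4.87 ± 0.56 in 129S1/ImJ, 5.76 ± 0.78 in C57Bl/6J and 4.71 ± 0.50 in FVB/NJ (SD, n = 3). DBA/2J was thus the highest strain both for this list and for H2-Ea, and among the E-functional strains A/J was the lowest for both. C57Bl/6J, the next highest for the list, had H2-Ea at 3.27. As an E-null strain it cannot show how H2-Ea follows the B cell level. In blood RNA, fewer cells of a type and less RNA per cell cannot be told apart. The part that B cell number has in the H2-Ea difference was not tested.

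The partner chain and the A molecule did not divide by side. H2-Eb1, the E beta chain, had strain means of 6.28 in A/J, 7.39 in C3H/HeJ and 8.85 in DBA/2J, against 7.95 in 129S1/ImJ, 8.47 in C57Bl/6J and 3.44 in FVB/NJ. FVB/NJ was low on all 3 arrays (3.47, 3.27 and 3.59), and the other 5 strains overlapped. The difference of 0.88 ± 0.39 was not called (adjusted p = 0.309) and turned to -0.71 without FVB/NJ. For H2-Aa, the A alpha chain, the means were 7.06 in A/J, 7.98 in C3H/HeJ and 9.47 in DBA/2J, against 7.95 in 129S1/ImJ, 8.36 in C57Bl/6J and 7.64 in FVB/NJ, a difference of 0.19 ± 0.39 (adjusted p = 0.893). H2-Ab1, the A beta chain, had 4.61 in A/J, 5.26 in C3H/HeJ and 7.36 in DBA/2J, against 7.02 in 129S1/ImJ, 7.27 in C57Bl/6J and 5.19 in FVB/NJ, a difference of -0.75 ± 0.34 (adjusted p = 0.336). Cd74, the invariant chain that escorts class II through the cell, had a difference of 0.15 ± 0.34 (adjusted p = 0.901), and its strain means ran from 7.79 to 9.69 in the E-functional strains and from 7.60 to 9.08 in the E-null strains. H2-Eb2 had values of 2.16 to 2.88 on the GLOBINclear arrays and fell below the filter on low values. Of the 10 class II genes tested, H2-Ea was the 1 called, against 4.44% of all genes, and 8 of 10 differences were positive (median 0.25), beside 5656 of 11353 over all genes (median -0.000372). The differences of H2-DMb2 (1.10) and H2-Ob (0.85), the next largest in the list, were not called (adjusted p = 0.142 and 0.154).

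Promoters are shown for H2-Eb1, whose level in FVB/NJ stood apart, for H2-Aa, whose level did not, and for H2-D1, whose brightest probe set separated the sides. The 3 windows are the 250 bases before the start of each gene in RefSeq's annotation of GRCm38.p6, 5′ to 3′ on the strand of the gene: chr17:34305617-34305866 (+) for H2-Eb1, chr17:34287824-34288073 (-) for H2-Aa and chr17:35262844-35263093 (+) for H2-D1. That genome is of C57BL/6J and so shows the b haplotype alone. Capitals mark matches to 3 motifs searched on both strands: the Y box CTGATTGG, the core of a kappaB site, GGGATTCCC, and the core of an interferon response element, GTTTCACTT.
H2-Eb1: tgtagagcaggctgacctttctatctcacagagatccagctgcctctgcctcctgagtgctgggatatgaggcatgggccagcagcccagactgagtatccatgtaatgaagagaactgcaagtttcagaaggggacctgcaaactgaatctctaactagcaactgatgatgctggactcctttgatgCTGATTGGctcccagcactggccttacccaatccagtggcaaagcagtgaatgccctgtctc
H2-Aa: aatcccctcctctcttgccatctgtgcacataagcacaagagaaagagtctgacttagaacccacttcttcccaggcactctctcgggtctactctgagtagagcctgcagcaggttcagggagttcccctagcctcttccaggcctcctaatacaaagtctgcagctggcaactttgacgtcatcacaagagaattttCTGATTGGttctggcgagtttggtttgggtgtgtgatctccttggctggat
H2-D1: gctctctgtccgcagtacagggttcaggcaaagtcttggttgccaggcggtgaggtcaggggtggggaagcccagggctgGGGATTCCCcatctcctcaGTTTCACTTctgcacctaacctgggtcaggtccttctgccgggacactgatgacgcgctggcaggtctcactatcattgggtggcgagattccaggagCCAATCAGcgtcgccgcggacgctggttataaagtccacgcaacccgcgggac

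The Y box, a site of the NF-Y factor in class II promoters, began 62 bases before the start in H2-Eb1 and 51 bases before it in H2-Aa. It lay on the minus strand 53 bases before the start in H2-D1, where it is printed as its reverse complement. The kappaB core and the interferon core began 170 and 151 bases before the start of H2-D1 and did not overlap. Among the first listed promoter windows of 27025 genes, 4.07% held the Y box, 0.311% the kappaB core and 0.352% the interferon core. These matches describe the b haplotype sequence and say nothing of the other alleles.

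The class I genes H2-K1 and H2-D1 were lower in the E-functional strains on their brightest probe sets. H2-K1 had 6.28 to 10.62 (median 9.30) on the 9 E-functional arrays, against 10.35 to 11.56 (median 11.13) on the 9 E-null arrays, with 1 array of each side inside the range of the other. Its strain means were 9.49 in A/J, 6.90 in C3H/HeJ and 10.25 in DBA/2J, against 11.04 in 129S1/ImJ, 11.15 in C57Bl/6J and 11.09 in FVB/NJ, a difference of -2.21 ± 0.20 (4.63-fold lower, adjusted p = 8.55e-06). C3H/HeJ was the lowest strain and the 3 E-null strains lay close together. H2-D1 had 7.58 to 10.79 (median 9.31) on the 9 E-functional arrays, against 10.66 to 11.73 (median 11.21) on the 9 E-null arrays, and strain means of 9.53 in A/J, 7.68 in C3H/HeJ and 10.50 in DBA/2J, against 11.21 in 129S1/ImJ, 11.20 in C57Bl/6J and 11.37 in FVB/NJ. The difference was -2.02 ± 0.18 (4.07-fold lower, adjusted p = 8.55e-06).

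Other probe sets of the same class I genes did not all follow, so these values belong to probe sets and not to genes. Of the 7 other H2-D1 sets 3 were called lower as well, at -2.27, -1.75 and -1.21, and 4 were called higher. On the H2-D1 sets 1452544_x_at, 1425614_x_at and 1427651_x_at, A/J and DBA/2J had 9.65 to 10.55, against 3.18 to 3.94 in the E-null strains, and C3H/HeJ had 4.68, 3.24 and 4.13. On 1450170_x_at C3H/HeJ alone was high, at 9.50, and the other 5 strains had 4.56 to 4.68. A/J and DBA/2J share the d allele at D, and C3H/HeJ carries the k allele. Averaged over its 8 tested sets, H2-D1 was 1.00 higher in the E-functional strains (adjusted p = 6.28e-04), the reverse of the brightest set. On a second H2-K1 set, 1425336_x_at, A/J and C3H/HeJ had 5.64 and 6.06 and DBA/2J had 9.66, against 10.69, 10.11 and 9.12 in 129S1/ImJ, C57Bl/6J and FVB/NJ. The strains differ in sequence at these loci and most of the sets carry the suffix of probes that can match several transcripts, so amount and match to the probe cannot be told apart. The heat map of MHC probe sets gives every set.

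**Figure D1:**
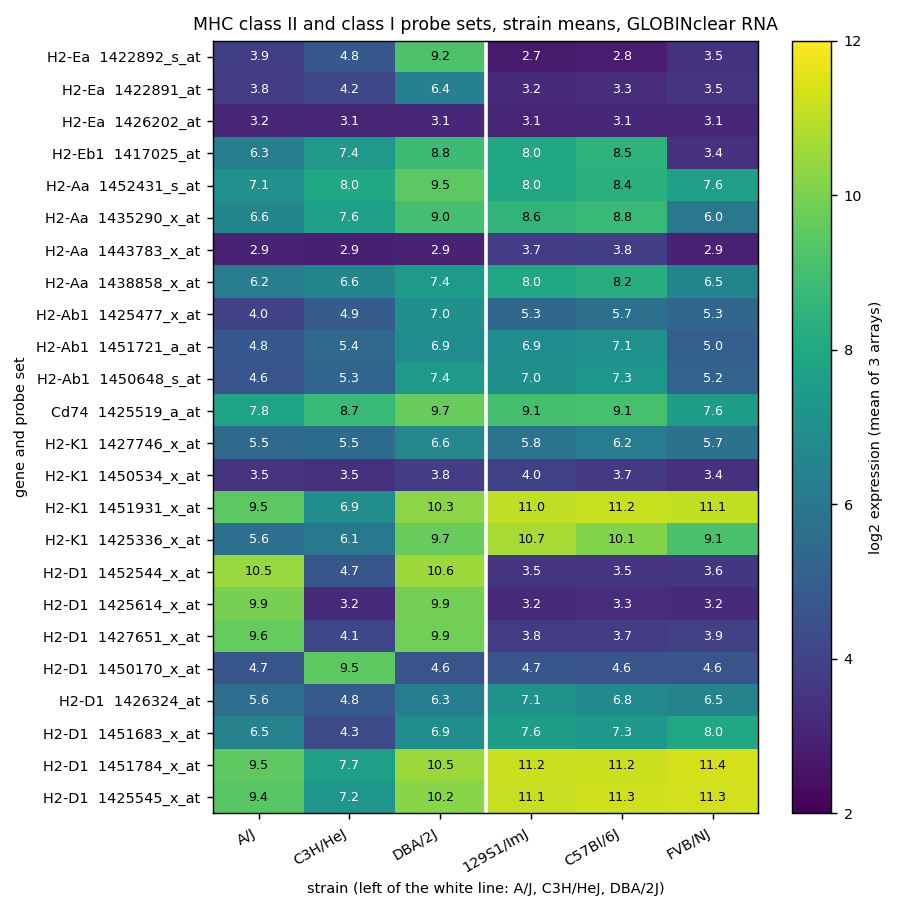
Strain means (log2, 3 GLOBINclear arrays each) of all tested probe sets of 5 class II genes and 2 class I genes; columns left of the white line are the E-functional strains. H2-Ea is high in DBA/2J on 2 of 3 sets (6.41 and 9.20), H2-Eb1 is low in FVB/NJ (3.44), and the H2-D1 sets run in opposite directions.

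Of the 22 tested genes of class I and peptide loading, counted by their brightest sets, 3 were lower and 0 higher, beside 2.76% lower and 1.68% higher over all genes. The lower genes were H2-K1 and H2-D1, whose other sets did not all follow, and Tapbp, the chaperone that holds class I for loading. Tapbp differed by -0.60 ± 0.16 (adjusted p = 0.0462), with overlapping strain means and a call that leaving out any of 14 single arrays ended. Among 40 other genes of the MHC region, 1 was higher and 2 were lower, beside the same shares over all genes. Flot1, a membrane microdomain protein, had strain means of 5.16 in A/J, 5.35 in C3H/HeJ and 5.42 in DBA/2J, against 6.18 in 129S1/ImJ, 6.29 in C57Bl/6J and 6.95 in FVB/NJ (-1.16 ± 0.29, adjusted p = 0.0351), a call that leaving out any of 13 single arrays ended. Abhd16a, a phosphatidylserine lipase, differed by -0.81 ± 0.17 (adjusted p = 0.014) on its brightest set, while its other tested set had 0.35 and was not called. Lst1, a leukocyte transcript of the region, was higher by 0.75 ± 0.16 (adjusted p = 0.0165), with A/J and DBA/2J highest and C3H/HeJ below C57Bl/6J. Without both arrays that stood apart the counts for the region were 1 higher and 5 lower, beside 215 higher and 495 lower of all 11353 genes. On the whole of chromosome 17, 13 of 518 tested genes were called with separated means (2.51%), beside 1.73% over all chromosomes.

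Genes higher in the E-functional strains were led by Hs6st1 (chromosome 1), the heparan sulfate 6-O-sulfotransferase. Its strain means were 7.64 in A/J, 6.67 in C3H/HeJ and 5.56 in DBA/2J, against 4.01 in 129S1/ImJ, 3.18 in C57Bl/6J and 3.20 in FVB/NJ, and the arrays had 4.48 to 7.75 (median 6.39) on the 9 E-functional arrays, against 2.77 to 4.92 (median 3.28) on the 9 E-null arrays. The difference was 3.16 ± 0.25 (8.93-fold higher, adjusted p = 2.39e-06), with 1 array of each side, from DBA/2J and 129S1/ImJ, inside the range of the other. Ttc9 (chromosome 12), a small tetratricopeptide repeat protein, was the most uniform: 5.50 ± 0.35 in A/J, 5.29 ± 0.22 in C3H/HeJ and 5.17 ± 0.10 in DBA/2J, against 2.54 ± 0.01 in 129S1/ImJ, 2.53 ± 0.03 in C57Bl/6J and 2.58 ± 0.05 in FVB/NJ (SD, n = 3). The E-null strains were all at the bottom of the scale and no array overlapped. Its difference was 2.77 ± 0.09 (adjusted p = 2.15e-11), and with strain means as samples it was the 1 gene called (adjusted p = 0.00486). A second Ttc9 set, near the bottom of the scale everywhere, differed by 0.34 the same way (adjusted p = 0.032).

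**Figure D2:**
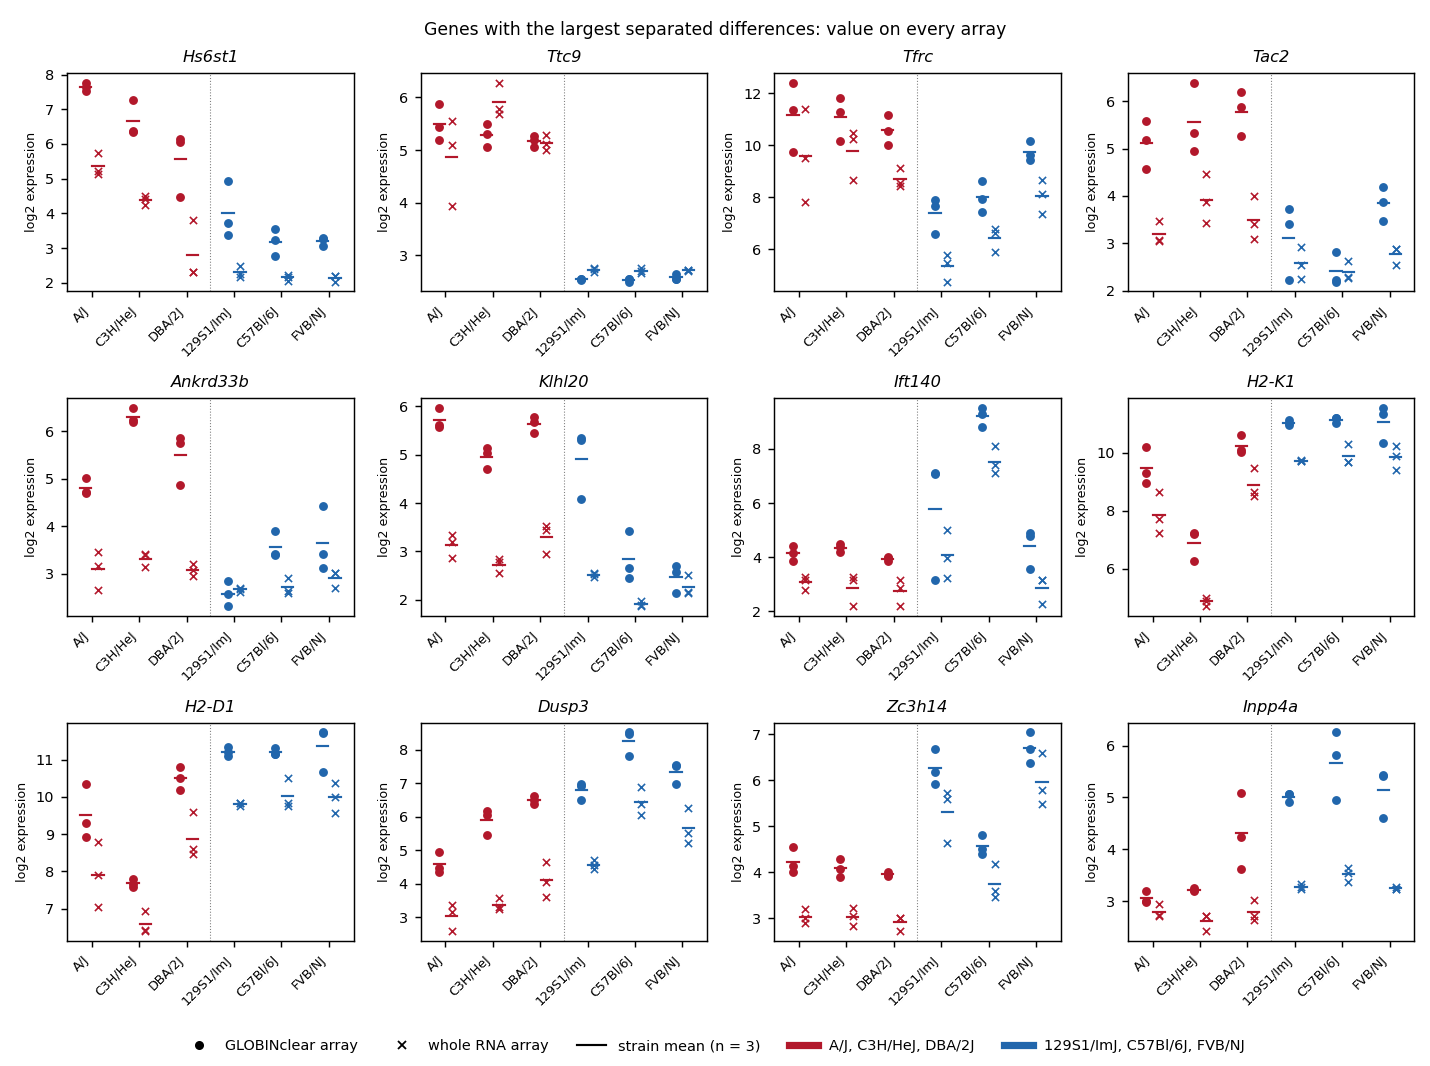
Log2 expression on every array for the 6 genes with the largest separated higher and the 6 with the largest separated lower difference; filled points are GLOBINclear arrays, crosses whole RNA arrays, and bars strain means (n = 3). Ttc9 lies between 5.05 and 5.88 on all E-functional GLOBINclear arrays and between 2.50 and 2.64 on all E-null ones, while Ift140 is highest in C57Bl/6J (9.21).

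Receptors and ligands were among the leading higher genes. Tfrc (chromosome 16), the transferrin receptor through which red cell precursors take up iron, had 9.73 to 12.38 (median 11.16) on the 9 E-functional arrays, against 6.59 to 10.16 (median 7.92) on the 9 E-null arrays. The highest E-null strain was FVB/NJ: the means were 11.16 in A/J, 11.08 in C3H/HeJ and 10.58 in DBA/2J, against 7.37 in 129S1/ImJ, 7.99 in C57Bl/6J and 9.74 in FVB/NJ, a difference of 2.57 ± 0.34 (5.94-fold higher, adjusted p = 3.37e-04). Of its 2 dimmer sets, 1422967_a_at ran the same way (1.58, not called) and 1422966_a_at did not (-0.14, not called). Tac2 (chromosome 10), which encodes the tachykinin neurokinin B, had 5.11 in A/J, 5.56 in C3H/HeJ and 5.78 in DBA/2J, against 3.12 in 129S1/ImJ, 2.41 in C57Bl/6J and 3.84 in FVB/NJ (2.36 ± 0.25, adjusted p = 3.04e-05), and no array overlapped. Ryk (chromosome 9), an atypical receptor of the Wnt pathway, differed by 1.40 ± 0.17 (adjusted p = 1.63e-04). Its arrays did not overlap, but the highest FVB/NJ array and the lowest E-functional array both rounded to 4.99, and a second Ryk set differed by 2.54 in the same direction and was called. Calcrl (chromosome 2), the calcitonin receptor-like receptor, was higher by 1.34 ± 0.34 (adjusted p = 0.0373), a call that leaving out any of 15 single arrays ended.

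Among the enzymes and adaptors, Ankrd33b (chromosome 15), an ankyrin repeat protein, had 4.81 in A/J, 6.31 in C3H/HeJ and 5.49 in DBA/2J, against 2.58 in 129S1/ImJ, 3.57 in C57Bl/6J and 3.65 in FVB/NJ (2.27 ± 0.18, adjusted p = 2.14e-06) with no overlap of arrays, although its other, dimmer set was flat (0.02). Klhl20 (chromosome 1), an adaptor of a cullin-3 ubiquitin ligase, had 5.72 in A/J, 4.96 in C3H/HeJ and 5.64 in DBA/2J, against 4.91 in 129S1/ImJ, 2.84 in C57Bl/6J and 2.46 in FVB/NJ (2.03 ± 0.18, adjusted p = 6.58e-06). Here 129S1/ImJ, with 2 arrays in the E-functional range, lay just under C3H/HeJ. Metap2 (chromosome 10), a methionine aminopeptidase, differed by 1.74 ± 0.24 (adjusted p = 4.15e-04), and 2 of its 3 other sets were called the same way. Usp25 (chromosome 16), a deubiquitinating enzyme, had 10.53 to 11.04 on the E-functional arrays, against 8.50 to 10.41 on the E-null arrays, without overlap (1.34 ± 0.20, adjusted p = 0.00105). Myo1d (chromosome 11), a class I myosin, had 6.43 in A/J, 6.26 in C3H/HeJ and 6.31 in DBA/2J, against 5.41 in 129S1/ImJ, 4.13 in C57Bl/6J and 4.99 in FVB/NJ (1.49 ± 0.22, adjusted p = 7.40e-04). Its second set had 0.45 and was not called.

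For 3 of the 15 leading higher genes 1 E-null strain, FVB/NJ, carried most of the difference. Ncoa7 (chromosome 10), a nuclear receptor coactivator, had 8.47 in A/J, 7.85 in C3H/HeJ and 8.26 in DBA/2J, against 7.44 in 129S1/ImJ, 7.79 in C57Bl/6J and 4.88 in FVB/NJ. Borcs5 (chromosome 6), a subunit of the BORC complex that positions lysosomes, had 6.92 in A/J, 6.56 in C3H/HeJ and 6.77 in DBA/2J, against 6.49 in 129S1/ImJ, 6.37 in C57Bl/6J and 3.47 in FVB/NJ. D17H6S56E-5, on chromosome 17, had 5.01 in A/J, 5.15 in C3H/HeJ and 5.39 in DBA/2J, against 4.23 in 129S1/ImJ, 4.89 in C57Bl/6J and 2.42 in FVB/NJ. Each kept its direction without FVB/NJ (0.58, 0.32 and 0.62) and lost its call. The call of Ncoa7 also ended without any of 10 single arrays and that of Borcs5 without any of 12.

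In 11 genes (0.0969%) every array of a side lay beyond every array of the other. They were Ttc9, Tac2, Ankrd33b, Ryk, Usp25, Ifnar2, Zcrb1, Camkk2 and Dram2 among the higher genes and Slc35b1 and Coa5 among the lower, and of these Ifnar2, Zcrb1, Camkk2, Dram2 and Slc35b1 are named here after their values were seen. Ifnar2, a subunit of the receptor of type I interferons, had 8.79 to 9.70 on the E-functional arrays and 6.84 to 8.75 on the E-null arrays (1.30 ± 0.14, adjusted p = 5.00e-05). Its other sets ran the same way, by 0.77 (called) and 0.41 (not called). Slc35b1, a nucleotide sugar transporter family member, had 6.62 to 7.30 on the E-functional arrays, against 7.40 to 8.76 on the E-null arrays (-0.98 ± 0.17, adjusted p = 0.0029).

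Among the genes lower in the E-functional strains, Dusp3 (chromosome 11), a dual specificity phosphatase, had strain means of 4.59 in A/J, 5.89 in C3H/HeJ and 6.50 in DBA/2J, against 6.79 in 129S1/ImJ, 8.26 in C57Bl/6J and 7.34 in FVB/NJ. The arrays had 4.35 to 6.62 (median 6.05) on the 9 E-functional arrays, against 6.51 to 8.51 (median 7.50) on the 9 E-null arrays, and 1 of each side overlapped (-1.81 ± 0.16, adjusted p = 5.49e-06). Inpp4a (chromosome 1), an inositol polyphosphate 4-phosphatase, had 3.07 in A/J, 3.23 in C3H/HeJ and 4.32 in DBA/2J, against 5.01 in 129S1/ImJ, 5.67 in C57Bl/6J and 5.15 in FVB/NJ (-1.74 ± 0.20, adjusted p = 7.53e-05). DBA/2J was the nearest to the E-null strains, with 1 array at 5.08. Pde2a (chromosome 7), a cyclic nucleotide phosphodiesterase, had 5.37 in A/J, 5.14 in C3H/HeJ and 4.85 in DBA/2J, against 6.92 in 129S1/ImJ, 6.82 in C57Bl/6J and 6.17 in FVB/NJ (-1.52 ± 0.22, adjusted p = 6.63e-04), and its other set was called the same way (-1.08).

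Zc3h14 (chromosome 12), a zinc finger protein that binds poly(A) tails, had 4.23 in A/J, 4.09 in C3H/HeJ and 3.95 in DBA/2J, against 6.25 in 129S1/ImJ, 4.57 in C57Bl/6J and 6.70 in FVB/NJ (-1.75 ± 0.13, adjusted p = 1.23e-06). C57Bl/6J lay close to the E-functional strains, and 129S1/ImJ and FVB/NJ carried most of the difference. Tent4b (chromosome 8), a noncanonical poly(A) polymerase, had 5.57 in A/J, 5.61 in C3H/HeJ and 7.75 in DBA/2J, against 8.01 in 129S1/ImJ, 7.97 in C57Bl/6J and 7.92 in FVB/NJ. A/J and C3H/HeJ were low and DBA/2J lay near the E-null strains, so the separation at that strain was small (-1.66 ± 0.21, adjusted p = 1.63e-04). Drap1 (chromosome 19), a corepressor of transcription, differed by -1.37 ± 0.14 (adjusted p = 2.72e-05), with FVB/NJ (5.13) the nearest E-null strain. Kpna1 (chromosome 16), an importin of nuclear cargo, differed by -1.30 ± 0.21 (adjusted p = 0.00158), and 3 of its 4 other sets were called the same way. Trim59 (chromosome 3), a RING finger protein, had -1.25 ± 0.28 (adjusted p = 0.0193) and a second set at -1.55, also called, but lost its call without any of 3 strains.

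Ift140 (chromosome 17), an intraflagellar transport protein, had 4.15 in A/J, 4.36 in C3H/HeJ and 3.94 in DBA/2J, against 5.79 in 129S1/ImJ, 9.21 in C57Bl/6J and 4.42 in FVB/NJ (-2.32 ± 0.43, adjusted p = 0.0046). Without C57Bl/6J the difference was -0.96 and was not called. Slc15a2 (chromosome 16), a peptide transporter, was at the bottom of the scale in the E-functional strains and high in FVB/NJ: 2.68 in A/J, 2.63 in C3H/HeJ and 2.63 in DBA/2J, against 3.51 in 129S1/ImJ, 3.37 in C57Bl/6J and 6.21 in FVB/NJ (-1.71 ± 0.19, adjusted p = 5.62e-05). It lost its call without FVB/NJ. Cbr1 (chromosome 16), a carbonyl reductase, had -1.25 ± 0.23 (adjusted p = 0.0053) and lost its call without either of 2 strains. Ttc7b (chromosome 12), a scaffold of a phosphatidylinositol 4-kinase complex, had 4.22 in A/J, 4.30 in C3H/HeJ and 3.70 in DBA/2J, against 5.11 in 129S1/ImJ, 5.68 in C57Bl/6J and 5.13 in FVB/NJ (-1.23 ± 0.20, adjusted p = 0.00174), and its second set, near the bottom of the scale, was flat (0.04). Hcst (chromosome 7), the adaptor through which the receptor NKG2D signals in cytotoxic cells, had 3.66 in A/J, 5.25 in C3H/HeJ and 4.38 in DBA/2J, against 5.83 in 129S1/ImJ, 5.68 in C57Bl/6J and 5.39 in FVB/NJ (-1.20 ± 0.17, adjusted p = 6.90e-04). C3H/HeJ (5.25) came close to FVB/NJ (5.39).

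**Figure D3:**
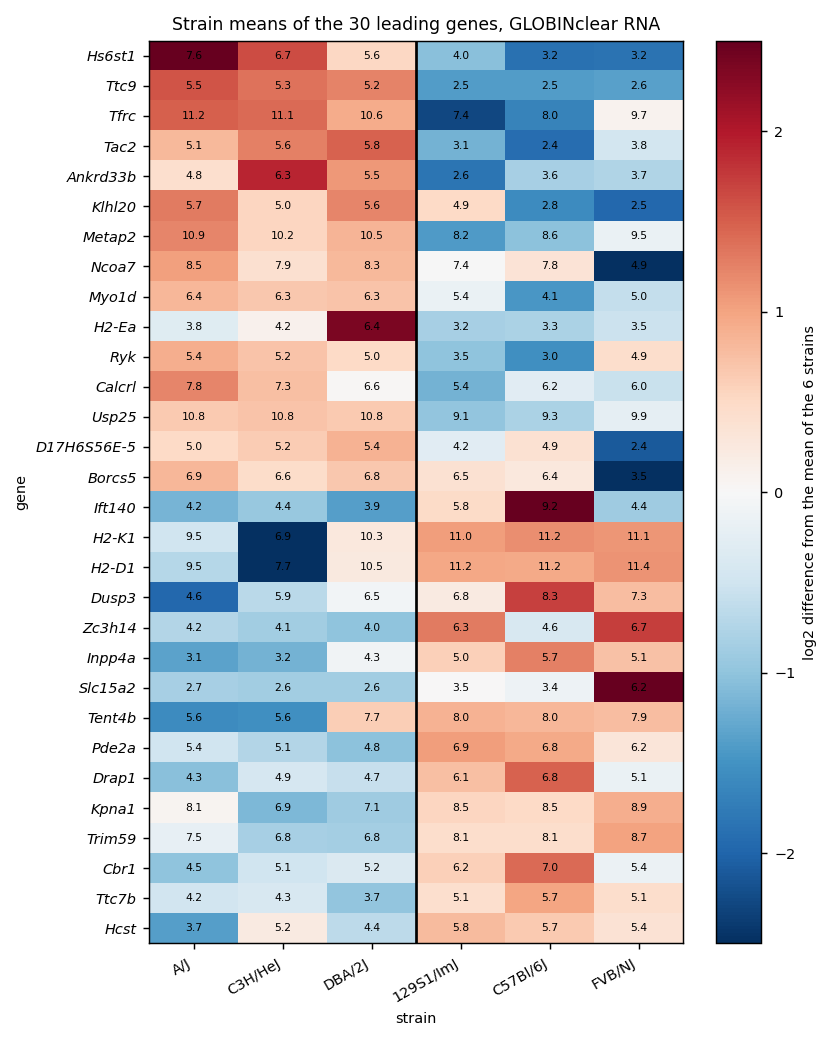
Strain means (log2, printed) of the 30 genes with the largest separated differences, coloured by distance from the mean of the 6 strains, E-functional strains left of the line. Ttc9 is even across each side, while Slc15a2 (6.21 in FVB/NJ), Ift140 (9.21 in C57Bl/6J) and H2-Ea (6.41 in DBA/2J) rest on 1 strain.

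The 6 largest called differences with overlapping strain means rested on a single strain or a pair. Gdpd3, a lysophospholipase D, had strain means of 2.11 in A/J, 2.16 in C3H/HeJ and 2.15 in DBA/2J, against 13.40 in 129S1/ImJ, 2.14 in C57Bl/6J and 12.87 in FVB/NJ. Its difference of -7.33 ± 0.08 (adjusted p = 2.41e-17) thus averages a pair of very high strains with C57Bl/6J, which lay with the E-functional strains. Npy, neuropeptide Y, had 3.02 in A/J, 2.62 in C3H/HeJ and 2.75 in DBA/2J, against 10.41 in 129S1/ImJ, 2.58 in C57Bl/6J and 2.69 in FVB/NJ (-2.43 ± 0.10, adjusted p = 3.92e-10), and without 129S1/ImJ the difference was 0.16. Gsta2, a glutathione transferase, had 3.28 in A/J, 3.11 in C3H/HeJ and 3.24 in DBA/2J, against 5.54 in 129S1/ImJ, 7.90 in C57Bl/6J and 3.12 in FVB/NJ (-2.31 ± 0.20, adjusted p = 5.49e-06). Diaph3, a formin, had 7.20 in A/J, 7.23 in C3H/HeJ and 6.49 in DBA/2J, against 10.34 in 129S1/ImJ, 9.50 in C57Bl/6J and 7.04 in FVB/NJ (-1.98 ± 0.17, adjusted p = 4.47e-06). In both genes 129S1/ImJ and C57Bl/6J were high and FVB/NJ lay with the E-functional strains. The transcript 2310034O05Rik divided the same strains the other way, with 9.98 in A/J, 9.56 in C3H/HeJ and 9.15 in DBA/2J, against 6.53 in 129S1/ImJ, 6.08 in C57Bl/6J and 9.48 in FVB/NJ (2.20 ± 0.18, adjusted p = 2.50e-06). Gpaa1, a subunit of the GPI transamidase, had 6.85 in A/J, 3.33 in C3H/HeJ and 6.69 in DBA/2J, against 3.90 in 129S1/ImJ, 3.87 in C57Bl/6J and 3.30 in FVB/NJ (1.94 ± 0.16, adjusted p = 3.88e-06), so that C3H/HeJ lay with the E-null strains, and its second set had 0.54 and was not called.

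Calls among markers of the white cells were few, as they were over all genes (4.44%). The median levels of these lists ran from log2 3.2 to 4.53. Of all genes, 1.52% were called up to log2 3.5 and 4.89% between log2 3.5 and 5. Of 18 B cell markers 0 were called by limma, 17 were positive (median 0.34) and 5 had an unadjusted p under 0.05, all higher. Of 21 T cell markers 1 was called, lower, 1 was positive (median -0.33) and 4 had an unadjusted p under 0.05, all lower. The called gene was Lat, the adaptor of the T cell receptor, with 6.69 in A/J, 6.43 in C3H/HeJ and 7.49 in DBA/2J, against 8.47 in 129S1/ImJ, 7.98 in C57Bl/6J and 7.48 in FVB/NJ (-1.10 ± 0.18, adjusted p = 0.00196), where DBA/2J and FVB/NJ nearly coincided. The mean level of the T cell list ran from 4.05 to 5.02 on the E-functional arrays and from 4.19 to 6.37 on the E-null arrays, and its highest array was C57Bl/6J replicate 1. Without that array the median difference of the list was -0.13, and without 129S1/ImJ replicate 3 it was -0.48. Among 20 NK and cytotoxic genes, 16 neutrophil markers, 22 monocyte markers and 10 markers of eosinophils, basophils and mast cells, 0 were called by limma. At an unadjusted p under 0.05 they held 3, 2, 1 and 1 genes, all lower, and their medians were -0.22, -0.16, -0.03 and 0.04. The neutrophil median rested on 129S1/ImJ replicate 3: without that array it was 0.14 and 1 marker was lower, and 3 NK and cytotoxic genes were then lower as well.

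**Figure D4:**
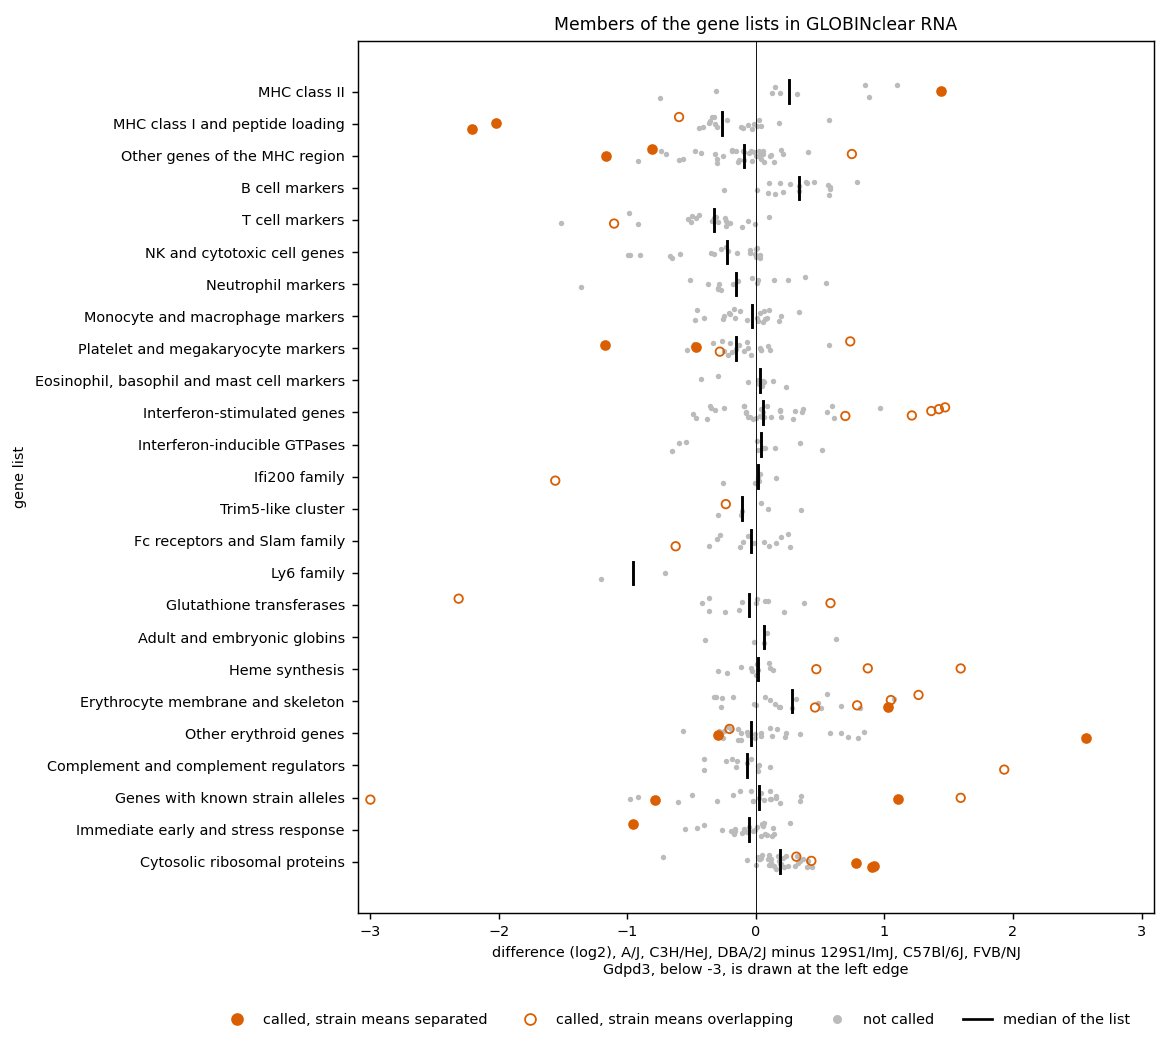
Differences (log2, E-functional minus E-null strains) of the tested members of 25 gene lists in GLOBINclear RNA; filled points are called with separated strain means, open points called with overlapping means, grey points not called, and bars list medians. The B cell median is 0.34 and the T cell median -0.33 with few or no called members, and Tfrc is the farthest point to the right at 2.57.

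Platelet transcripts, which are abundant in blood RNA, were called in 4 of 25 genes, 1 higher and 3 lower. The list had a median level of log2 10.06, and of all genes above log2 9, 13.1% were called, close to the share in the list. Thbs1, thrombospondin, had 7.17 in A/J, 8.88 in C3H/HeJ and 9.38 in DBA/2J, against 9.44 in 129S1/ImJ, 9.87 in C57Bl/6J and 9.64 in FVB/NJ (-1.18 ± 0.19, adjusted p = 0.00168), with A/J far below the rest, and lost its call without A/J. Pf4, platelet factor 4, differed by -0.28 ± 0.05 (adjusted p = 0.0038) and Itga2b, the alpha chain of the fibrinogen receptor, by -0.47 ± 0.13 (adjusted p = 0.0491), a call that leaving out any of 14 single arrays ended. Rgs18, a regulator of G protein signalling, was higher by 0.73 ± 0.14 (adjusted p = 0.00651), with A/J (12.04) and FVB/NJ (11.93) highest. Without C57Bl/6J replicate 1 the counts were 1 higher and 7 lower.

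In the list of erythrocyte membrane and skeleton genes 5 of 25 were higher and 0 lower (median 0.28), beside 1.68% higher and 2.76% lower over all genes. The list had a median level of log2 6.84, and of all genes with a mean between log2 5 and 7, 10.4% were called in either direction. Rhag, the Rhesus-associated glycoprotein, had 9.04 in A/J, 7.91 in C3H/HeJ and 8.40 in DBA/2J, against 6.43 in 129S1/ImJ, 7.19 in C57Bl/6J and 7.94 in FVB/NJ (1.26 ± 0.30, adjusted p = 0.0269). Add2, beta adducin of the membrane skeleton, differed by 1.05 ± 0.22 (adjusted p = 0.0131), Slc14a1, the urea transporter, by 1.02 ± 0.23 (adjusted p = 0.017) and Aqp1, the water channel, by 0.79 ± 0.19 (adjusted p = 0.0269). Cd47, which shields red cells from phagocytosis, was the other called gene (0.46). Strain means were separated for Slc14a1 alone of the 5. Any of 7 single arrays ended the call of Rhag when left out, and any of 8 that of Aqp1. As the mean of their sets Add2 and Slc14a1 were not called (adjusted p = 0.0572 and 0.101). In Rhag, Add2 and Aqp1 FVB/NJ reached into the E-functional range, and for Add2 129S1/ImJ did as well. The mean level of the list was 8.02 in A/J, 7.95 in C3H/HeJ and 7.65 in DBA/2J, against 7.43 in 129S1/ImJ, 7.38 in C57Bl/6J and 7.78 in FVB/NJ, so FVB/NJ stood above DBA/2J. In heme synthesis, a list with a median level of log2 5.43, 3 of 14 genes were higher and 0 lower, none with separated means: Alad, which makes porphobilinogen (1.59 ± 0.21, adjusted p = 2.93e-04), the mitochondrial transporter Abcb10 (0.87 ± 0.18, adjusted p = 0.0115) and Uros (0.47 ± 0.13, adjusted p = 0.0483), whose whole RNA difference was -0.01 and whose call leaving out any of 14 single arrays ended. The whole RNA difference of Abcb10 was 0.01. Alad was low above all in C57Bl/6J (4.78). Beside Tfrc, the 32 other erythroid genes held 2 lower ones, Bpgm, which makes 2,3-bisphosphoglycerate, at -0.30 ± 0.06 (adjusted p = 0.0139; all 3 sets called) and Isca1, of iron-sulfur assembly, at -0.21 ± 0.05 (adjusted p = 0.0275; its other set at -0.01, and the call ended without any of 7 single arrays). Of 5 globin genes 0 were called by limma, and 1 had an unadjusted p under 0.05 (median of the list 0.07).

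Interferon-stimulated genes gave 5 higher and 0 lower of 38, beside 1.68% higher and 2.76% lower over all genes, none with separated means, and the divide ran through the E-null side. Irf7, the transcription factor that amplifies type I interferon, had 7.30 in A/J, 8.36 in C3H/HeJ and 6.87 in DBA/2J, against 4.73 in 129S1/ImJ, 9.19 in C57Bl/6J and 4.19 in FVB/NJ (1.47 ± 0.25, adjusted p = 0.00289). Ifit1 had 6.85 in A/J, 7.06 in C3H/HeJ and 6.52 in DBA/2J, against 4.48 in 129S1/ImJ, 7.26 in C57Bl/6J and 4.43 in FVB/NJ (1.42 ± 0.30, adjusted p = 0.0124). Usp18, which restrains interferon signalling, had 5.01 in A/J, 5.23 in C3H/HeJ and 4.61 in DBA/2J, against 3.08 in 129S1/ImJ, 4.79 in C57Bl/6J and 3.34 in FVB/NJ (1.21 ± 0.21, adjusted p = 0.00313), and Ifitm3, which blocks virus entry, differed by 0.70 ± 0.14 (adjusted p = 0.00743). Ifi27 was the other called gene (1.36). For Irf7 and Ifit1 C57Bl/6J was the highest strain of the 6, for Usp18 and Ifitm3 it lay within the range of the E-functional strains, and in all 4 genes 129S1/ImJ and FVB/NJ were low. Mndal, of the Ifi200 family, was high in C3H/HeJ (6.91), 129S1/ImJ (7.50) and C57Bl/6J (7.30) and at 3.16 to 3.20 in the other 3 strains, which does not follow the sides.

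Cytosolic ribosomal protein genes were positive in 35 of 37 cases (median 0.19), beside 5656 of 11353 over all genes, and 5 were called higher and 0 lower by limma. The list had a median level of log2 10.41, and of all genes above log2 9, 13.1% were called, close to the share in the list. After median centring 3 were called higher, and after quantile normalization 5 were higher and 1 lower. Rpl37 had 6.78 in A/J, 6.25 in C3H/HeJ and 6.05 in DBA/2J, against 5.20 in 129S1/ImJ, 5.09 in C57Bl/6J and 6.04 in FVB/NJ (0.92 ± 0.15, adjusted p = 0.00158) and Rps19 had 10.38 in A/J, 10.39 in C3H/HeJ and 10.60 in DBA/2J, against 9.81 in 129S1/ImJ, 9.80 in C57Bl/6J and 9.44 in FVB/NJ (0.78 ± 0.16, adjusted p = 0.0104), both with separated means. Rps25 was the other of the 37 listed genes called with separated means (0.90). Rps7 differed by 0.43 ± 0.11 (adjusted p = 0.0404), a call that leaving out any of 16 single arrays ended, and Rpl7 by 0.31 ± 0.07 (adjusted p = 0.0237), a call that leaving out any of 4 ended. The mean level of the list was 10.67 to 10.77 in the E-functional strains and 10.44 to 10.56 in the E-null strains. Without C57Bl/6J replicate 1, 11 were called higher, and without both arrays that stood apart 17 were higher and 1 was lower, while the count over all genes then was 215 higher and 495 lower.

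The remaining lists are set beside 1.68% higher and 2.76% lower over all genes. Genes with known strain alleles held 2 higher and 2 lower of 25, and glutathione transferases 1 higher and 1 lower of 14. Complement genes held 1 higher of 13. Fc receptors and the Slam family held 1 lower of 14, and the Trim5-like cluster 1 lower of 7. Complement regulator Cd59a, which blocks the membrane attack complex, had 9.91 in A/J, 6.60 in C3H/HeJ and 9.34 in DBA/2J, against 4.84 in 129S1/ImJ, 7.90 in C57Bl/6J and 7.32 in FVB/NJ (1.93 ± 0.22, adjusted p = 8.16e-05), and C3H/HeJ lay below C57Bl/6J and FVB/NJ. Gstm5, a glutathione transferase, was higher by 0.58 ± 0.09 (adjusted p = 7.65e-04), with C57Bl/6J lowest (9.80). Fcer1g, the common gamma chain of Fc receptors, differed by -0.62 ± 0.11 (adjusted p = 0.003) through C57Bl/6J (10.53), and Trim30d by -0.23 ± 0.06 (adjusted p = 0.0262) through the same strain, a call that leaving out any of 9 single arrays ended. Of genes with known strain alleles, Pdxdc1 had 2.88 in A/J, 4.36 in C3H/HeJ and 4.60 in DBA/2J, against 2.81 in 129S1/ImJ, 2.85 in C57Bl/6J and 2.85 in FVB/NJ (1.11 ± 0.08, adjusted p = 1.49e-06), with A/J at the E-null level. Its difference was 0.07 in whole RNA and 0.04 on its other set, and neither was called. Erdr1 differed by -0.78 ± 0.21 (adjusted p = 0.046), a call that leaving out any of 13 single arrays ended. Dnajb1, an Hsp40 chaperone, was the 1 called gene of 27 immediate early and stress genes (-0.96 ± 0.22, adjusted p = 0.0187), and its second set had -0.31 and was not called. In the interferon-inducible GTPases (10 tested) and the Ly6 family (2 tested) 0 were called by limma, and 3 and 2 had an unadjusted p under 0.05, all lower.

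Separated calls seldom lay next to each other. Among windows of 15 neighbouring annotated genes, 6 held 3 such calls, 124 held 2, 2632 held 1 and 46913 held 0. The windows with 3 overlapped each other on chromosome 8, where 3 of 6 tested genes were lower: Gatad2a, a NuRD complex subunit (-0.69 ± 0.18, adjusted p = 0.0417), Nr2c2ap (-0.53 ± 0.13, adjusted p = 0.0394) and Rfxank, a subunit of the RFX factor that binds class II promoters. Rfxank had 6.30 in A/J, 5.60 in C3H/HeJ and 5.86 in DBA/2J, against 6.64 in 129S1/ImJ, 6.86 in C57Bl/6J and 6.80 in FVB/NJ (-0.85 ± 0.21, adjusted p = 0.03), the direction opposite to that of H2-Ea, and its other set had -0.29 and was not called. These 3 calls were near the threshold: leaving out any of 12 single arrays ended that of Gatad2a, any of 14 that of Nr2c2ap and any of 11 that of Rfxank. Pairs in 1 window were Inpp4a with Coa5, a cytochrome oxidase assembly factor (-0.78 ± 0.16, adjusted p = 0.00905), and Aamp (-0.61 ± 0.16) with the phosphatase Ctdsp1 (-0.86 ± 0.13) on chromosome 1, the deubiquitinase Usp32 (1.07 ± 0.23) with 1700125H20Rik (0.21 ± 0.06) on chromosome 11, and Hpcal1 (-0.88 ± 0.17) with Gm9222 (1.00 ± 0.19) on chromosome 12, which ran in opposite directions. The call of Aamp ended without any of 15 single arrays and that of 1700125H20Rik without any of 14. The other sets of Usp32 had -0.04 and -0.17 and were not called. As the mean of its sets Usp32 was not called either (0.29, adjusted p = 0.391), and its call ended without A/J. By chromosome the share of tested genes with a separated call ran from 0.246% on 14 to 2.79% on 8.

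In whole RNA of the same mice 200 genes were called (1.76%) and 90 were called with separated means (0.793%). Of the 196 separated GLOBINclear calls 186 had the same sign in whole RNA, beside 59.4% of all genes tested, 58 were called there with that sign and 0 with the opposite one. All 66 that differed at least 2-fold kept their sign, and 33 of them were called. The direction also held for 293 of the 308 calls with overlapping means, so whole RNA repeats the strain values of the same mice whether or not a side is uniform. Ttc9 had 2.59 in whole RNA (adjusted p = 3.10e-07), Tfrc 2.74 (adjusted p = 0.00245) and H2-Ea 1.28 (adjusted p = 4.07e-04). H2-K1 had -2.62 (adjusted p = 5.18e-06). Smaller in whole RNA were Ankrd33b (0.40), Ryk (0.39) and Ttc7b (-0.21), of which Ankrd33b was called there. Other named calls were near 0 in whole RNA and not called there. They included Usp18 (0.0055), Abcb10 (0.0082), Uros (-0.0085), Lst1 (0.067), Pdxdc1 (0.074) and Erdr1 (-0.080). No test of a difference between the preparations was made.

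**Figure D5:**
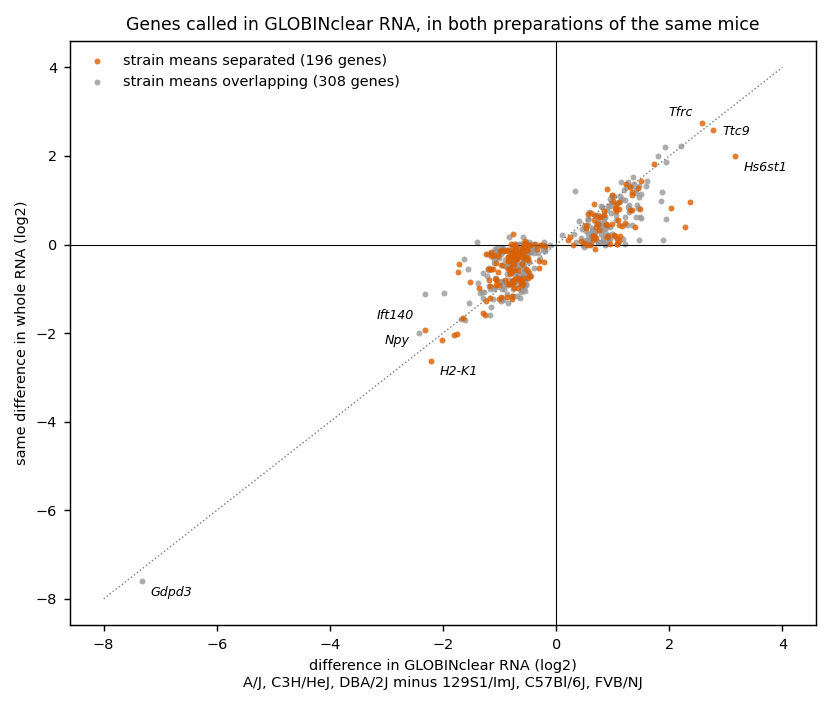
Difference between the sides (log2) of the 504 genes called in GLOBINclear RNA, on GLOBINclear arrays (x axis) and whole RNA arrays (y axis) of the same mice; the dotted line marks equal values. Of the 196 separated genes 186 keep their sign in whole RNA, and Gdpd3, with overlapping strain means, lies farthest out at -7.33.

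Further probe sets offered a check within the same arrays. Of the 196 separated genes 92 had other tested probe sets. In 37 another set was called the same way, in 2 another was called the opposite way, and in 71 all other sets had the same sign. Calls were more frequent at higher levels: 1.52% of the genes with a mean up to log2 3.5 were called, 4.89% up to 5, 10.4% up to 7, 15.7% up to 9 and 13.1% above.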

How the data were processed

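Blood RNA of 18 male mice was hybridised to 36 arrays, 1 of whole and 1 of GLOBINclear RNA for each mouse. Groups and replicate numbers came from the sample titles. The deposited values are log2 expression summaries per probe set, a scale read from the values. The submitters' processing notes name GCRMA, MAS5 and affy without version or role. Joint normalization of both preparations is not stated, nor is the day of hybridisation, so neither could be a term of the fit.

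Of 45101 probe sets, 64 controls were left out and 22518 with a mean over all arrays above the median (log2 2.89) were tested. Names came from the platform annotation: 34945 sets had 1 symbol, 932 several and 9160 none, and sets without 1 symbol were not named. Strain means were fitted with limma 3.58.1 (eBayes with an intensity trend) in R 4.3.3, and the contrast of both sides was adjusted by the Benjamini-Hochberg method. The code was tested on simulated data. Precision is limited by the 3 arrays per strain, and nothing says that the mice of a strain came from separate litters. The members, the gene lists and the tests were chosen with earlier results of these data known. Named are the 15 largest separated 2-fold differences in each direction with the same sign in whole RNA, class II genes, up to 4 called genes per list, the 6 largest overlapping calls and the genes of up to 5 chromosomal windows; Cd47, Ifi27, Rps25 and 5 genes whose arrays did not overlap were added after their values were seen. Alternatives were other scalings, filters and probe set summaries, a replicate block, arrays or strains left out, strain as a random block and strain means as samples; leaving out the arrays that stood apart together was chosen after seeing the data. Replicate numbers did not pair the strains.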

Additional observations from a re-analysis of the deposited data

Results flagged for a closer look

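In 9 of 168 sets of 9 arrays, for the named genes on either side, the highest or the lowest array stood farther from the rest than Dixon's critical value allows. That value is set to flag about 1 in 20 sets of 9 draws from a single normal distribution. Each set here pools 3 strains with their own means, so the rate need not hold. On the E-functional side Ifit1 had 7.73 on C3H/HeJ replicate 3 (next 6.99), Dnajb1 5.81 on C3H/HeJ replicate 1 (next 5.28) and 1700125H20Rik 3.56 on A/J replicate 3 (next 3.18). On the E-null side Hs6st1 had 4.92 on 129S1/ImJ replicate 2 (next 3.73), Hcst 6.42 on 129S1/ImJ replicate 1 (next 5.78) and Rfxank 5.65 on 129S1/ImJ replicate 3 (next 6.55). FVB/NJ replicate 2 was low for H2-K1 (10.35, next 10.95) and Pde2a (5.56, next 6.47), and FVB/NJ replicate 3 was the highest E-null array for Ttc9 (2.64, next 2.55), at the bottom of the scale. The differences of Hs6st1, Ttc9, H2-K1 and Pde2a kept their calls without any single array.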

How the results depend on the processing

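The main counts were 952 called probe sets and 401 with separated strain means. Under quantile normalization, median centring, eBayes without a trend, no filter on low values and the mean of the arrays of each mouse they stayed within 1.5 times. Leaving out single arrays gave 669 to 1200 called, 272 to 487 separated and, in whole RNA (351 called), 244 to 426. Leaving out A/J gave 547 called. Separated counts, now of 3 strains from 2, were 883 without 129S1/ImJ, 764 without FVB/NJ and 320 to 459 without 1 of the other 4 strains. With strain as a random block (correlation 0.0884) 59 were called, all separated; with strain means as samples 1, also after quantile normalization and without the filter; on the whole RNA arrays 351 were called and 142 separated. A mean of at least log2 5 left 234 separated. The replicate block gave 873 called, 375 separated and 327 in whole RNA; same-numbered arrays of different strains had a median correlation of deviations of 0.0464, 6 of 18 arrays correlated best with their own number, and 8 named genes lost their call. Without both arrays that stood apart 1331 were called and 497 separated; 152 of the 196 separated genes were still called and separated. Signs turned for genes not called: Cd74 (-0.048 to 0.32 over single arrays left out, negative without C3H/HeJ replicate 1 and C57Bl/6J replicate 3, -0.33 without DBA/2J, -0.34 without FVB/NJ and -0.0078 in whole RNA), H2-Aa (-0.050 without C57Bl/6J replicate 3 to 0.42 without C57Bl/6J replicate 1, -0.46 without DBA/2J, -0.31 as the mean of its sets) and H2-Eb1 (-0.71 without FVB/NJ). They also turned for the called genes Npy (0.16 without 129S1/ImJ), Trim30d (0.035 without C57Bl/6J), Uros (-0.0085 in whole RNA) and H2-D1 (1.00 as the mean of its sets). The cause was not tested. Without 129S1/ImJ replicate 3, alone or with C57Bl/6J replicate 1, the monocyte markers and the Ly6 family each held 1 lower call, the immediate early genes 2 and the interferon-inducible GTPases 1 or 2. Without C57Bl/6J replicate 1 the interferon-stimulated genes held 7 higher calls. Of 80 called named genes 19 lost the call without some array and 47 without some strain. Near the bottom of the scale folds are understated, and few genes there were called.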
